A study of Mus musculus with 6 samples.

Results

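The collagen gene family comprised 44 protein-coding genes of the mouse, chosen by name alone, as those whose symbol reads Col, a type number, the letter a and a chain number. They were 44 of the 56262 genes listed in the count tables. No measured value entered this rule, though the family was chosen with earlier results of these data known. RNA-seq had been performed on leg muscle of mouse fetuses at embryonic day 18.5 (E18.5), with 3 wild-type (WT) samples and 3 samples of SYISL knockout (KO) fetuses. SYISL is a long noncoding RNA transcribed within an intron of the muscle gene Synpo2, and the KO line had been made earlier by the same laboratory, while the WT mice came from an animal centre of its university. Fetuses of each genotype had parents of that genotype, so a KO fetus developed in a KO mother, and the genotype of the fetus, that of the mother and the litter cannot be told apart. Apart from the SYISL deletion the labels name no allele or agent, and they do not say whether a sample was 1 fetus or a pool, so p-values measure the spread between these samples only, which may be technical.

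Collagens are the main structural proteins of the extracellular matrix, built from chains that wind around each other into a stiff helix. Fibrillar collagens form the cables of tendon, bone, cartilage and the connective tissue around muscle fibers, fibril-associated collagens (FACIT) coat these cables, and type IV collagens form the mesh of basement membranes. In skeletal muscle, fibroblasts make most of the fibrillar and type VI collagen, and each muscle fiber is wrapped in a basement membrane that holds type IV collagen. A second set of collagens is used mainly elsewhere, in cartilage, bone or skin.

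All 44 genes passed the filter on low counts, which kept 22071 genes. Depth was 82054811 to 102233181 counts per sample, so the least counted member, Col4a3, still had 25 to 41 counts per sample. Values are CPM, counts of a gene per 1e6 counts of the library, on library sizes scaled by the TMM method. A gene was called where the adjusted p of edgeR's quasi-likelihood test, adjusted by Benjamini-Hochberg over all genes, was under 0.05 and the fold change was over 1.5. GENCODE M21 holds no gene named SYISL, so the loss of its RNA was not checked here. Errors of log2 fold changes are standard errors (SE). The tissue label was compared with marker lists: the muscle markers Acta1 and Myh8 had 4280.5 to 4635 and 4166 to 5153 CPM in WT, and epidermal keratins were also present, with Krt1 at 7931 to 11748.5 CPM in WT. WT replicate 2 had the highest summed keratinocyte markers and the lowest summed cartilage, tendon and adipocyte markers of the WT samples, and values without it are given for each collagen called.

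Of the 44 collagen genes, 1 was called higher in KO, Col28a1, and 6 were called lower: Col17a1, Col9a1, Col9a3, Col4a6, Col2a1 and Col9a2. The higher call made up 2.27% of the members, against 8.31% of all genes tested, and the lower calls made up 13.6%, against 8.39% of all genes. In bulk tissue, fewer cells of a type and less RNA per cell cannot be told apart. The genes called lower were the type II and type IX collagens of cartilage, the epidermal type XVII collagen and a minor type IV chain, while the abundant collagens of connective tissue were not called. By the adjusted p alone, 20 members were higher, 45.5% of the family against 21.9% of all genes, and 11 were lower, 25.0% against 23.1%. The remaining 13 passed in neither direction. Upper-quartile scaling gave 3 calls higher and 6 lower, and by the adjusted p alone 23 and 9, while scaling by library size only gave 15 and 12 by the adjusted p alone. The 3 WT and the 3 KO values did not overlap for 36 members, 25 of them higher and 11 lower in KO, or 81.8% of the family against 55.9% of all genes tested. The median log2 fold change of KO over WT was 0.14 over the 44 members and 0.00 over all genes tested.

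**Figure D1:**
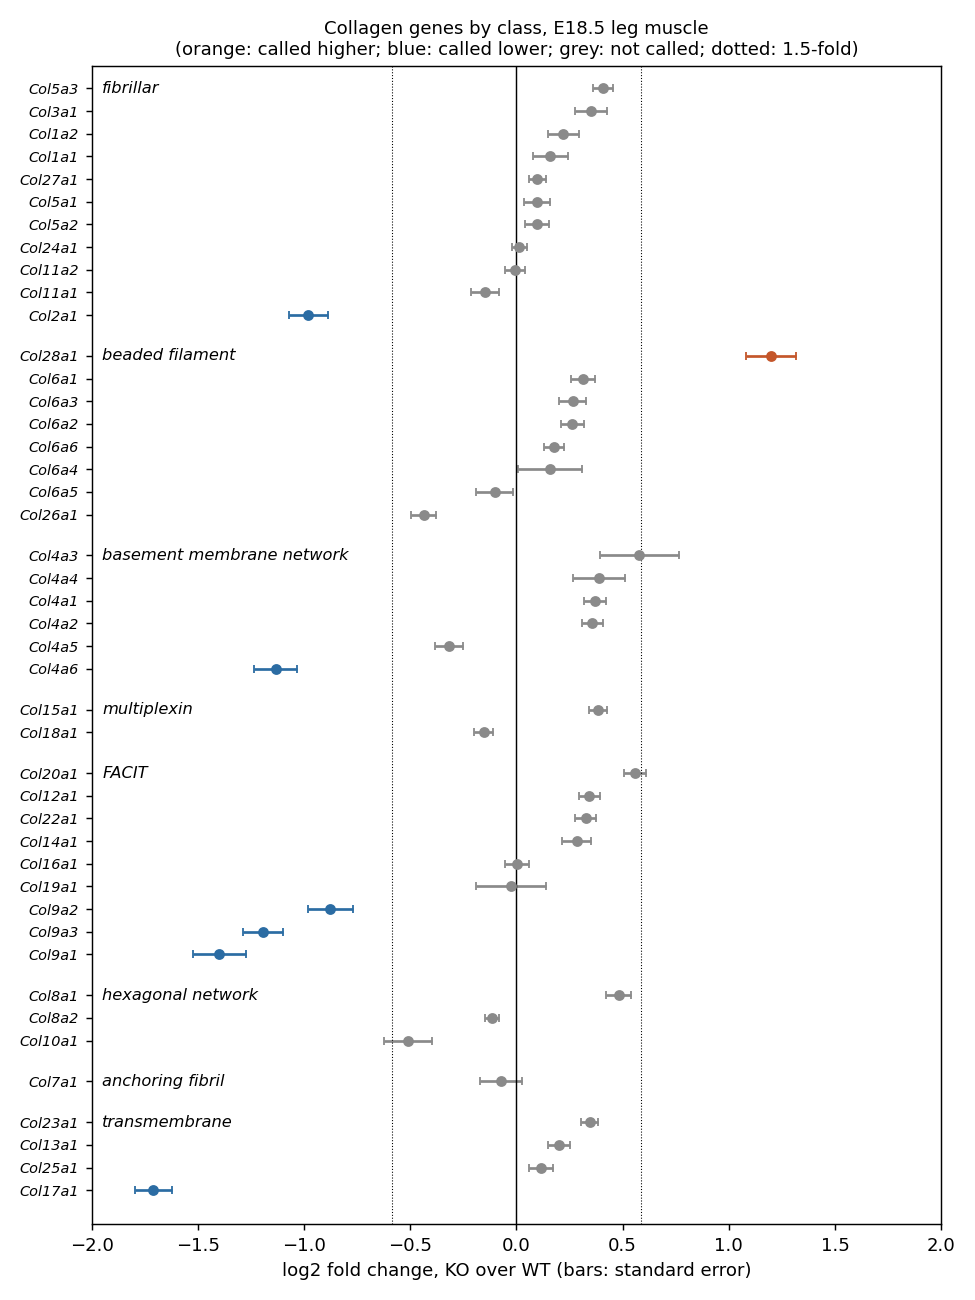
Log2 fold change of KO over WT for each of the 44 collagen genes, grouped by class, with bars for the standard error and dotted lines at a 1.5-fold change. Most genes sit between 0 and 0.6, while Col17a1, Col9a1, Col9a3, Col4a6, Col2a1 and Col9a2 lie between -0.88 and -1.71 and Col28a1 lies at 1.20.

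To compare levels between members, CPM were divided by the length of all annotated exons in kilobases. On this scale Col1a1, a chain of type I collagen, stood first in WT at 2792 ± 188 CPM per kb (SD, n = 3). Its partner chain Col1a2 followed at 978 ± 6.29 and the type III chain Col3a1 at 977 ± 30.0 CPM per kb, and these neighbours did not differ beyond their spread. In KO these places were exchanged, with Col3a1 at 1246 ± 55.5 and Col1a2 at 1141 ± 42.7 CPM per kb. Col6a1 came next at 436 ± 6.50 CPM per kb in WT, and the lowest level was that of Col4a3 at 0.0275 ± 0.0028 CPM per kb. The highest members of the other classes in WT were the type IV chain Col4a1 at 171, the FACIT Col14a1 at 90.9, the multiplexin Col15a1 at 45.9, the hexagonal network chain Col8a2 at 19.4, the transmembrane Col17a1 at 15.5 and the anchoring fibril Col7a1 at 14.4 CPM per kb. Col17a1 moved from place 22 in WT to place 30 in KO, and Col2a1 from place 19 to place 22. The steps between genes depend on the length chosen, since annotated exons include rarely used isoforms. Per kilobase of exon Col1a1 exceeded Col1a2 2.85-fold in WT, and per kilobase of coding sequence 1.42-fold.

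**Figure D2:**
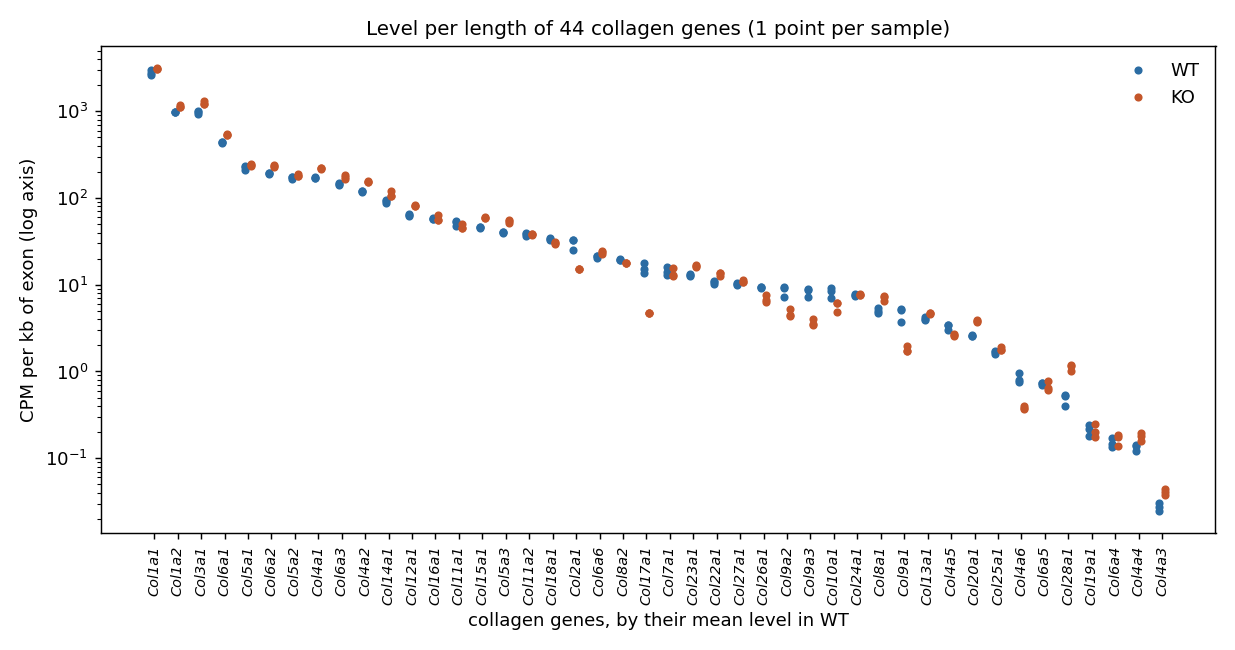
Level of each collagen gene in CPM per kilobase of exon on a log axis, 1 point per sample, with genes ordered by their WT mean. The WT means run from 2792 for Col1a1 to 0.0275 for Col4a3, and the largest moves in the order are those of Col17a1, from place 22 to 30, and of Col9a3 (29 to 34), Col8a1 (32 to 27) and Col24a1 (31 to 26).

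Collagen genes together took 5.62%, 5.77% and 5.85% of all counts in WT, against 6.70%, 6.21% and 6.21% in KO. Every KO sample was above every WT sample, with a difference of 0.625 percentage points (exact permutation test, two-sided, p = 0.1, the smallest that 3 samples against 3 allow). Of that difference, 0.478 points lay in Col1a1, Col1a2 and Col3a1, which together held 4.10 ± 0.115% of all counts in WT and 4.58 ± 0.201% in KO (SD, n = 3 each). Of the collagen counts alone, fibrillar chains held 80.6 ± 0.483% in WT and 80.0 ± 0.226% in KO, and the groups overlapped (exact permutation p = 0.2). The cartilage collagens held 2.57 ± 0.239% of collagen counts in WT and 1.83 ± 0.0146% in KO, with no overlap (exact permutation p = 0.1). Col3a1 alone held 17.1 ± 0.253% of collagen counts in WT and 18.7 ± 0.456% in KO, with no overlap (exact permutation p = 0.1). The cartilage group and the genes named here were chosen with earlier results of these data known. These contrasts therefore describe the values and test nothing. Shares of raw counts depend on what else was sequenced, and the keratinocyte markers alone summed to 15153 to 22630 CPM in WT and to 723 to 798 CPM in KO.

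The fibrillar collagens are the 11 chains that form cross-banded fibrils, and 1 of them, Col2a1, was called. Col1a1 had 17112, 19579 and 18280 CPM in WT replicates 1 to 3 and 20356, 20701 and 20375 CPM in KO replicates 1 to 3. Col1a2 had 12082, 12139 and 12237 CPM in WT and 14779, 13790.4 and 13951 CPM in KO. Both type I chains were lower in every WT sample than in any KO sample, but by little. The log2 fold change was 0.16 for Col1a1 (SE 0.083, edgeR adjusted p = 0.15) and 0.22 for Col1a2 (SE 0.073, adjusted p = 0.0338, and 0.125 with library size only). For Col1a1 the adjusted p was 0.0191 with DESeq2 and 0.0367 with limma-voom, so its pass depended on the tool. Col3a1, which co-assembles with type I collagen in elastic connective tissue, had 9266, 9667 and 9839.7 CPM in WT and 12849.6, 11998 and 11834 CPM in KO. Its log2 fold change of 0.35 (SE 0.075, edgeR adjusted p = 0.00413) was below the 1.5-fold threshold. Of the type V chains, which regulate fibril diameter, Col5a1 and Col5a2 differed by 0.10 each on the log2 scale (edgeR adjusted p = 0.235 and 0.193). The third chain, Col5a3, was higher in KO by 0.41 (SE 0.047, edgeR adjusted p = 9.18e-05), from 275 ± 4.26 to 365 ± 15.5 CPM (SD, n = 3 each). Col24a1, Col27a1 and the type XI chains lay between -0.15 and 0.10 on the log2 scale and passed in neither direction.

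The type VI collagens form beaded filaments around muscle fibers, and loss of their main chains causes muscle disease. Col6a1 had 1915, 1879.7 and 1936 CPM in WT and 2425, 2356 and 2343 CPM in KO. Col6a2 had 1605, 1596 and 1635 CPM in WT and 1988, 1879 and 1937 CPM in KO. Col6a3 had 1696, 1755 and 1779.6 CPM in WT and 2223, 1981 and 2080.2 CPM in KO. All of these chains, which assemble together, were higher in every KO sample than in any WT sample. Their log2 fold changes were 0.31, 0.26 and 0.26 (SE 0.055, 0.055 and 0.063, edgeR adjusted p = 0.00138, 0.00364 and 0.00743), below the threshold of fold change. Col6a6 was higher by 0.18 (edgeR adjusted p = 0.0108), and Col6a4 and Col6a5, at 1.28 and 6.85 CPM in WT, passed in neither direction. Of the other members placed in this class, Col26a1, known from testis and ovary, was lower by 0.44 on the log2 scale (edgeR adjusted p = 0.000301).

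Col28a1 (ENSMUSG00000068794.7, chr6:7997808-8192617, minus strand, mm10) was the member called higher, and it is known as a collagen of peripheral nerve. It had 2.55, 1.97 and 2.64 CPM in WT and 4.98, 5.78 and 5.75 CPM in KO, on 163 to 559 counts per sample. All KO samples were well above all WT samples. Its log2 fold change was 1.20 (SE 0.118, edgeR adjusted p = 3.46e-05), and 1.08 without WT replicate 2. Of 8 Schwann cell markers, 2 were called higher and 1 lower (all genes tested: 8.31% and 8.39%). By the adjusted p alone, 7 of these markers were higher and 1 lower (all genes tested: 21.9% and 23.1%). The 8 markers summed to 119 to 132 CPM in WT and 133 to 157 CPM in KO, and none was at 0 in every sample. Mbp, which encodes a protein of myelin, had a log2 fold change of 0.53 with an edgeR adjusted p of 0.000424. The part of Schwann cells in the result for Col28a1 was not tested.

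Type IV collagens form the network of basement membranes, and their 6 genes lie in head-to-head pairs. Col4a1 and Col4a2, the chains of every basement membrane, are annotated on opposite strands of chromosome 8 and overlap by 22 bases. Col4a4 and Col4a3 lie 71 bases apart on chromosome 1, and Col4a6 and Col4a5 lie 1308 bases apart on the X chromosome. The sequences between these genes are shown because the members of each pair differed in the same direction, by similar or by unequal amounts. The first is the stretch shared by Col4a1 and Col4a2 (chr8:11312805-11312826, plus strand), the second the whole gap between Col4a4 and Col4a3 (chr1:82586850-82586920, minus strand). The last 2 are the bases before Col4a6 (chrX:141474077-141474326, minus strand) and before Col4a5 (chrX:141475169-141475384, plus strand), which lie at both ends of the gap between them. All are RefSeq promoter sequence of the GRCm38.p6 assembly, 5′ to 3′. Capitals mark a GC box (GGGCGG on either strand), a TATA box (TATAAA on either strand) or a CCAAT box (likewise), each found as exact letters.
Col4a1 and Col4a2, shared bases: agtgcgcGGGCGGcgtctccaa
Col4a4 to Col4a3, gap: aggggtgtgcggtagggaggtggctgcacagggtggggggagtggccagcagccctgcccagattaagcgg
Col4a6, upstream: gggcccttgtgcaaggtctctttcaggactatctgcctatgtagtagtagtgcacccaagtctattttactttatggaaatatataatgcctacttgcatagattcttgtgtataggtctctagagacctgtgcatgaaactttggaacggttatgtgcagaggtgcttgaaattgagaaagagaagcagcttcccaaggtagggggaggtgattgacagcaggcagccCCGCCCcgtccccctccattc
Col4a5, upstream: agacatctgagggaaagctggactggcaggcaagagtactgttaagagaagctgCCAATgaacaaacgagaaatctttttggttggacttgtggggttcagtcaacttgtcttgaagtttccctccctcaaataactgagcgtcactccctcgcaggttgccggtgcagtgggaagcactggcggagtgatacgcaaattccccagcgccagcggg

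Of the 32851 RefSeq windows of 250 bases before a start site, 32.7% held the GC box, 12.4% the TATA box and 33.8% the CCAAT box by these letters, none of which contains another. Among the 38 windows of 35 collagen genes the numbers were 22, 5 and 13. The GC box before Col4a6, read on the other strand, and the CCAAT box before Col4a5 describe letters in these windows and no more.

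Col4a1 had 1255, 1283 and 1289 CPM in WT and 1615, 1647 and 1679 CPM in KO. Col4a2 had 783, 798 and 799 CPM in WT and 1002, 1002 and 1044 CPM in KO. Both chains of this pair were higher in KO by nearly the same factor, with log2 fold changes of 0.37 and 0.36 (SE 0.052 and 0.049, edgeR adjusted p = 0.000367 and 0.000306), under the 1.5-fold threshold. Col4a3 and Col4a4, chains of kidney and lung basement membranes, were at 0.275 ± 0.0281 and 1.42 ± 0.122 CPM in WT (SD, n = 3 each). Their log2 fold changes were 0.58 and 0.39 (SE 0.188 and 0.123, edgeR adjusted p = 0.0314 and 0.0277). With DESeq2 the adjusted p was 0.193 for Col4a3 and 0.0574 for Col4a4, and with each sample left out it was 0.0502 to 0.115 and 0.0249 to 0.109 in edgeR, so neither passed throughout. Col4a3 was thus the member nearest to the fold threshold from below, at a 1.49-fold change. It shares 563 exon bases with C430014B12Rik on the opposite strand, which had at most 11 counts in a sample.

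The pair on the X chromosome went the other way. Col4a6 (ENSMUSG00000031273.16, chrX:141165403-141474076, minus strand, mm10), a chain of epidermal and smooth muscle basement membranes, had 6.01, 7.66 and 6.39 CPM in WT and 3.17, 3.05 and 2.92 CPM in KO. The KO samples lay close together and under every WT sample, and WT replicate 2 was the highest of all. The log2 fold change was -1.13 (SE 0.101, edgeR adjusted p = 1.77e-05), and -1.03 without WT replicate 2. Its neighbour Col4a5 had 20.3, 23.3 and 22.9 CPM in WT and 17.7, 17.3 and 18.4 CPM in KO, with a log2 fold change of -0.32 (SE 0.064, edgeR adjusted p = 0.00303).

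The multiplexins, which link basement membranes to the surrounding matrix, differed in sign. Col15a1, found in the outer part of the basement membrane of muscle fibers and capillaries, had 287, 291 and 296 CPM in WT and 377, 376 and 389 CPM in KO. Its log2 fold change was 0.39 (SE 0.042, edgeR adjusted p = 6.63e-05). Col18a1, the source of endostatin, was lower in KO by 0.15 on the log2 scale (edgeR adjusted p = 0.0205), at 237 ± 6.87 CPM in WT against 213 ± 8.19 CPM in KO (SD, n = 3 each). Neither reached a 1.5-fold change.

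**Figure D3:**
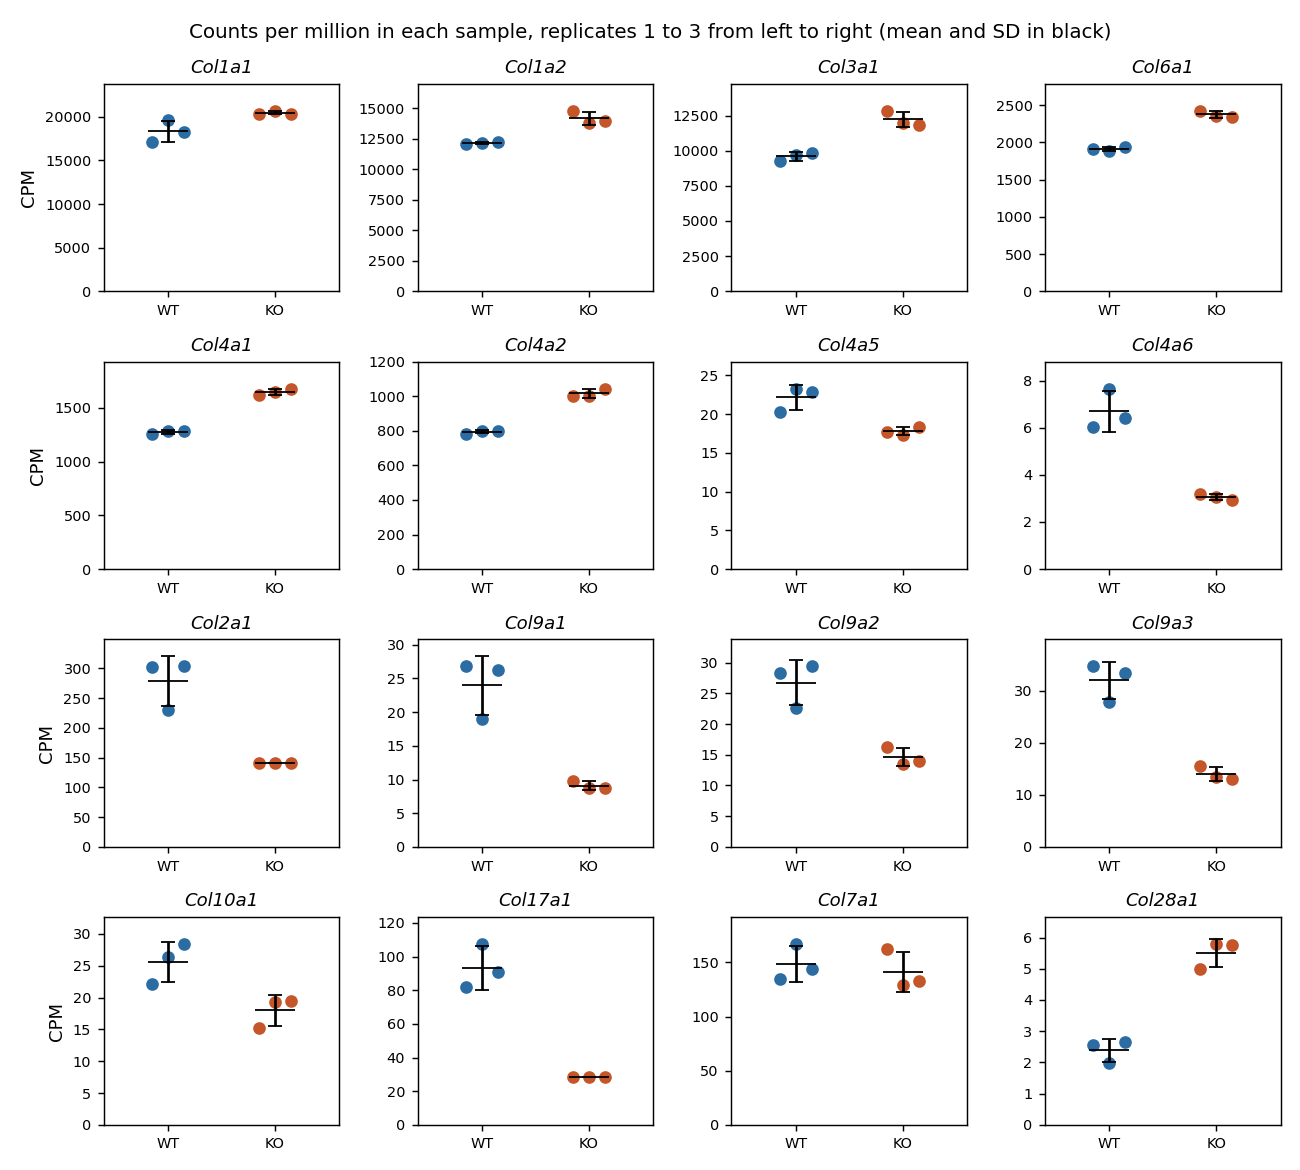
CPM of 16 collagen genes in each sample, with WT in blue, KO in orange and black marks for the mean and SD, and axes that start at 0. The WT and KO points of Col2a1, Col9a1, Col9a2, Col9a3, Col17a1, Col4a6 and Col28a1 are far apart, those of Col1a1 and Col4a1 are separated by a small step, and those of Col7a1 overlap.

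The FACIT class held 9 genes, and its members split. The type IX chains Col9a1, Col9a2 and Col9a3, which coat the fibrils of cartilage, were called lower, and none of the other 6 was called. Col14a1, a FACIT of tendon and dermis, had 661, 607 and 645 CPM in WT and 853, 733 and 744 CPM in KO, which gave a log2 fold change of 0.28 (SE 0.069, edgeR adjusted p = 0.00815). Col12a1 and Col22a1, the FACIT of connective tissue sheaths and of the muscle-tendon junction, were higher by 0.34 and 0.33 on the log2 scale (edgeR adjusted p = 0.000461 and 0.000424). Col20a1 was higher by 0.56 (SE 0.053, edgeR adjusted p = 2.69e-05), at 13.4 ± 0.187 CPM in WT against 19.7 ± 0.671 CPM in KO (SD, n = 3 each), just under the threshold at a 1.47-fold change. It shares 79 exon bases with the annotated gene BX649560.1 on the same strand, so reads there could have been split. Col16a1 and Col19a1 differed by less than 0.03 on the log2 scale.

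The cartilage collagens were taken as a group across classes: type II (Col2a1), type IX (Col9a1, Col9a2, Col9a3), type X (Col10a1), type XI (Col11a1, Col11a2) and Col27a1. Of these 8 genes 4 were called lower and none higher (all genes tested: 8.39% and 8.31%). Their median log2 fold change was -0.69, against 0.14 for all 44 members and 0.24 for the 34 outside the cartilage and epidermal groups. These groups were drawn with earlier results of these data known, so the contrast describes the values and tests nothing. Col2a1 (ENSMUSG00000022483.17), the main fibril chain of cartilage on chromosome 15, had 302, 230 and 303 CPM in WT and 141, 141 and 141 CPM in KO. The KO samples were almost equal, and the WT samples all lay far above them, with WT replicate 2 the lowest. The log2 fold change was -0.98 (SE 0.094, edgeR adjusted p = 2.8e-05).

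Col9a1 (ENSMUSG00000026147.16, chr1:24177610-24252684, plus strand, mm10) had 26.8, 19.0 and 26.3 CPM in WT and 9.84, 8.70 and 8.79 CPM in KO. Col9a2 (ENSMUSG00000028626.5, chr4:121039385-121055322, plus strand) had 28.3, 22.6 and 29.4 CPM in WT and 16.2, 13.5 and 14.0 CPM in KO. Col9a3 (ENSMUSG00000027570.15, chr2:180597790-180622189, plus strand) had 34.7, 27.9 and 33.5 CPM in WT and 15.6, 13.4 and 13.1 CPM in KO. The groups did not overlap for any of these chains, and again WT replicate 2 was the lowest WT sample. The log2 fold changes were -1.40 for Col9a1, -0.88 for Col9a2 and -1.19 for Col9a3 (SE 0.124, 0.105 and 0.095, edgeR adjusted p = 1.75e-05, 0.000127 and 8.21e-06). Without WT replicate 2 they were -1.54, -0.98 and -1.28, and that of Col2a1 was -1.10, so these differences were larger without it. Col9a3 shares 234 exon bases, 6.07% of its exons, with Tcfl5 on the opposite strand, which had at most 234 counts in a sample. The bases before the start of Col9a1 (chr1:24177360-24177609) and Col9a2 (chr4:121039316-121039384) are shown because these chains assemble together and fell together from different chromosomes. They are RefSeq sequence of GRCm38.p6 on the plus strand, ended before the first annotated exon, which left 69 bases for Col9a2, and neither held any of the boxes searched above.
Col9a1, upstream: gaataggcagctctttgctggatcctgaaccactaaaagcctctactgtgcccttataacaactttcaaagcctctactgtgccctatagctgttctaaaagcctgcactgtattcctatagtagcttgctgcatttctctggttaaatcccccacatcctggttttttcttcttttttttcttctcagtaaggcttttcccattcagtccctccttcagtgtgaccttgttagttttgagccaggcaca
Col9a2, upstream: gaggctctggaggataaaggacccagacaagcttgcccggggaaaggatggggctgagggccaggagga

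The other cartilage collagens did not follow to the same extent. Col10a1, the collagen of hypertrophic chondrocytes at the growth plate, had 22.1, 26.3 and 28.4 CPM in WT and 15.2, 19.2 and 19.5 CPM in KO, which gave a log2 fold change of -0.51 (SE 0.112, edgeR adjusted p = 0.00503) under the fold threshold. Col11a1 had 680, 613 and 684 CPM in WT and 638, 576 and 569 CPM in KO, and the groups overlapped. Col11a2 had 264, 249 and 274 CPM in WT and 257, 262 and 265 CPM in KO. Their log2 fold changes were -0.15 and -0.01 (edgeR adjusted p = 0.0935 and 0.936), and that of Col27a1 was 0.10 (adjusted p = 0.0715). The type XI chains are also made outside cartilage, in tendon and muscle connective tissue, and the part of these sites in the values was not tested.

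Of 11 cartilage markers that are no collagens, 2 were called higher and 4 lower (all genes tested: 8.31% and 8.39%). By the adjusted p alone, 3 of these markers were higher and 7 lower (all genes tested: 21.9% and 23.1%). The genes called lower were Matn1, Matn3, Cnmd and Snorc, and those called higher were Comp and Chad, all named after their values were seen. The summed level was 206, 168 and 202 CPM in WT and 232, 229.7 and 232 CPM in KO, a total led by Acan, the main cartilage proteoglycan, at a log2 fold change of 0.41 (edgeR adjusted p = 0.000646). Hapln1, which binds Acan to hyaluronan, differed by 0.05 (edgeR adjusted p = 0.74). The cartilage collagens summed to 1318 to 1512 CPM in WT and 1175 to 1235 CPM in KO, so the marker sum and the collagen sum moved in opposite directions between the groups. Of 10 bone markers 2 were called higher and 1 lower, with sums of 1032 to 1093 CPM in WT and 977 to 1055 CPM in KO, and Ibsp and Alpl, the most counted, were at -0.01 and -0.25 on the log2 scale. Of 6 tendon markers 2 were called higher, the fibril-binding Fmod and Thbs4 at log2 fold changes of 0.63 each (edgeR adjusted p = 2.07e-05 and 2.49e-05). No cartilage, bone or tendon marker was at 0 in every sample. The part of these tissues in the collagen values was not tested.

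The epidermal junction collagens, by which the basal cells of skin are held to the dermis, were Col17a1 and Col7a1. Col17a1 (ENSMUSG00000025064.15, on the minus strand of chromosome 19), a transmembrane chain of hemidesmosomes, had 81.6, 107 and 90.9 CPM in WT and 28.3, 28.5 and 28.7 CPM in KO. The KO samples were almost equal, and every WT sample was far above them. The log2 fold change of -1.71 (SE 0.086, edgeR adjusted p = 4.44e-07) was the largest of the family, a 3.27-fold lower level, and it was -1.60 without WT replicate 2. Col7a1, which forms the anchoring fibrils under the epidermis, had 135, 167 and 144 CPM in WT and 162, 129 and 133 CPM in KO. Its groups overlapped, and its log2 fold change was -0.07 (SE 0.098, edgeR adjusted p = 0.586). The stretch before Col17a1 (chr19:47692095-47692292, minus strand, RefSeq GRCm38.p6) is shown as that of the member with the largest change. It held the TATA box letters at 2 places, in capitals, which 12.4% of all windows of 250 bases held at least at 1 place.
Col17a1, upstream: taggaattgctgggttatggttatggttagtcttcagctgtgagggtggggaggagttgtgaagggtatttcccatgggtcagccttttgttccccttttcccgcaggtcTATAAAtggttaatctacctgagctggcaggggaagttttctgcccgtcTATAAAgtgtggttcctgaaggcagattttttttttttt

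All 13 keratinocyte markers were lower in KO by the adjusted p (23.1% of all genes tested), and 11 of them were called (8.39%). They summed to 15153, 22630 and 16982 CPM in WT and to 723, 798 and 763 CPM in KO, and none was at 0 in every sample. Krt1 and Krt10, the keratins of the upper epidermal layers and the most counted of the list, had log2 fold changes of -5.47 and -6.20 (edgeR adjusted p = 1.98e-07 and 3.14e-07). Among the WT samples, Col17a1, Col4a6 and Col7a1 were highest in replicate 2, in which these markers also were highest. So were collagens outside the epidermal group, among them Col1a1, Col5a1, Col5a3 and Col8a2. The part of epidermal tissue in the values of these collagens was not tested.

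**Figure D4:**
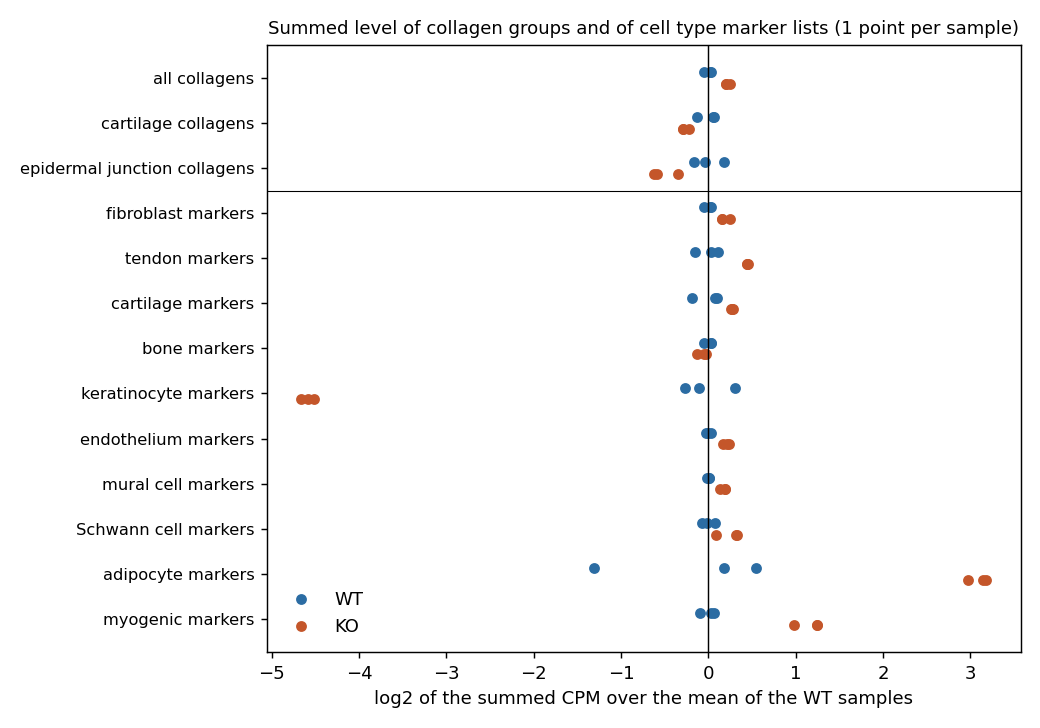
Summed CPM of collagen groups (above the line) and of 10 lists of cell type markers, as log2 of the value over the WT mean, 1 point per sample. The KO samples lie more than 4 units to the left for keratinocyte markers and about 3 to the right for adipocyte markers, while the collagen family as a whole lies within 0.3 of the WT mean.

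Of the remaining members, the hexagonal network chains Col8a1 and Col8a2, made by endothelium and smooth muscle, differed in sign. Col8a1 had 41.9, 37.0 and 39.3 CPM in WT and 51.5, 56.1 and 57.4 CPM in KO, which gave a log2 fold change of 0.48 (SE 0.057, edgeR adjusted p = 0.000119). Col8a2 had 86.2, 88.2 and 86.7 CPM in WT and 80.9, 81.0 and 79.0 CPM in KO, which gave a log2 fold change of -0.12 (SE 0.034, edgeR adjusted p = 0.0196). The groups of both did not overlap, and neither reached a 1.5-fold change. Among the transmembrane collagens, Col13a1 of the neuromuscular junction was higher by 0.20 and Col23a1 by 0.34 on the log2 scale (edgeR adjusted p = 0.0109 and 0.000114). Col25a1, which muscle needs for its motor innervation, had a log2 fold change of 0.12 (edgeR adjusted p = 0.122).

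Ratios between chains of the same helix were taken within each sample, so that they do not depend on the scaling between samples. Of 12 pairs compared, 6 had no overlap between WT and KO. For comparison, 55.9% of all genes tested had no overlap in CPM, so such a number is not unusual here. The log2 ratio of Col1a1 to Col1a2 differed by -0.06, that of Col4a1 to Col4a2 by 0.01, and that of Col5a1 to Col5a2 by 0.00 between KO and WT. The groups overlapped for these pairs, and for Col6a3 to Col6a1, Col4a3 to Col4a4 and Col11a1 to Col11a2. The largest differences were those of Col2a1 to Col11a1 and of Col4a5 to Col4a6. The former ratio was -0.71, -0.95 and -0.71 on the log2 scale in WT and -1.72, -1.56 and -1.55 in KO, and the latter was 1.85 to 2.09 in WT and 2.73 to 2.90 in KO. Relative to Col11a1, Col2a1 was thus lower in KO by 0.82, and relative to Col4a6, Col4a5 was higher by 0.81. Within type IX collagen the ratio to Col9a2 was lower in KO by 0.51 for Col9a1 and by 0.32 for Col9a3, so the chains fell by unequal amounts. The ratio of Col8a1 to Col8a2 was higher by 0.60, and that of Col6a1 to Col6a2 by 0.05. Each of these 6 had an exact permutation p of 0.1, the smallest that 3 samples against 3 allow, and 0.2 after adjustment over the 12 pairs. That p follows from the lack of overlap and adds nothing to it.

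**Figure D5:**
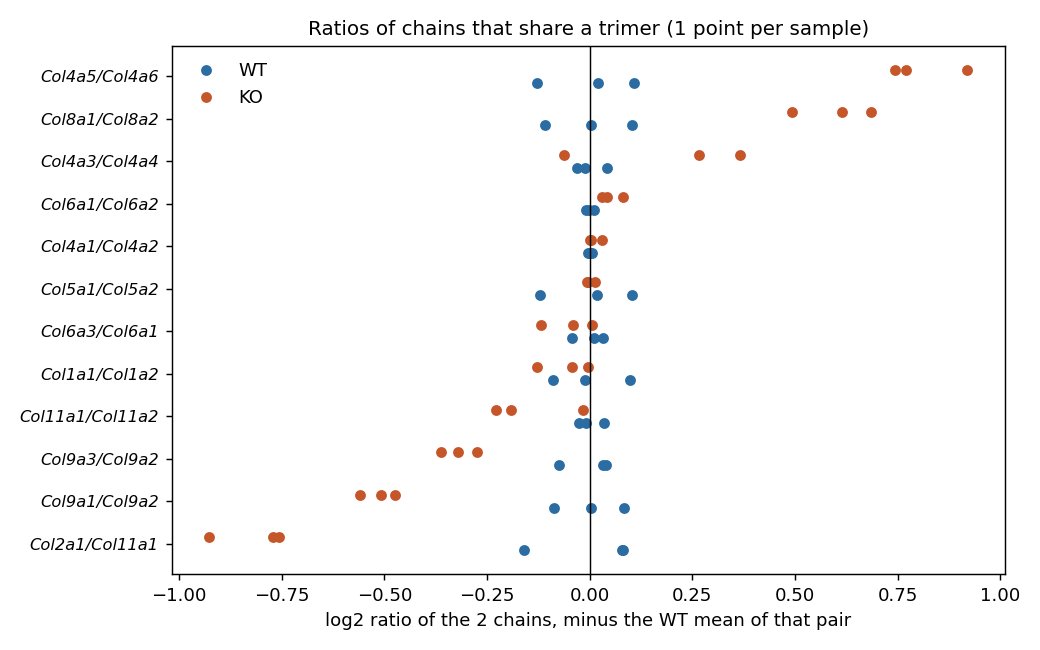
Log2 ratio of chain levels for 12 pairs of collagen chains, minus the WT mean of the pair, 1 point per sample. The type I, IV (Col4a1 and Col4a2) and V pairs lie around 0 in both groups, while Col2a1/Col11a1, Col9a1/Col9a2 and Col9a3/Col9a2 lie to the left in KO and Col4a5/Col4a6 and Col8a1/Col8a2 to the right.

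The genes that make, process, bind and degrade collagen were taken as 6 lists of 61 genes, 58 of which were tested. Called were 2 higher, Tmem38b and Timp4, and 2 lower, Tll2 and Mep1a, and by the adjusted p alone 26 were higher and 10 lower. Of all genes tested, 8.31% were called higher and 8.39% lower, and by the adjusted p alone 21.9% were higher and 23.1% lower. Tmem38b, an ion channel of the endoplasmic reticulum needed for collagen folding in bone, had a log2 fold change of 0.79 (SE 0.098, edgeR adjusted p = 0.000158). The protease inhibitor Timp4 (log2 fold change 2.17) and the proteases Tll2 (-1.50) and Mep1a (-1.86) were under 5 CPM, and they were named after their values were seen. Serpinh1, the chaperone specific to collagen in the endoplasmic reticulum, had 1555.5, 1651 and 1550.4 CPM in WT and a log2 fold change of -0.23 (SE 0.058, edgeR adjusted p = 0.011), opposite in sign to those of its abundant clients. Lox, which cross-links fibrils outside the cell, was higher by 0.22 (SE 0.050, edgeR adjusted p = 0.00682). All 5 cross-linking enzymes were higher by the adjusted p alone, at log2 fold changes of 0.22 to 0.54. Of 15 prolyl and lysyl modification genes 6 were higher and 2 lower by the adjusted p alone, of 9 propeptide processing genes 4 and 3, of 9 folding and export genes 1 and 3, of 11 breakdown genes and inhibitors 5 and 1, and of 9 collagen receptors 5 and 1.

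Markers of fibroblasts, which make most of the fibrillar collagen, had log2 fold changes from -0.02 to 0.55. Of 9 fibroblast markers tested none was called and 5 were higher by the adjusted p alone, and their sum was 2565 to 2716 CPM in WT and 2964 to 3159 CPM in KO. The matrix proteoglycans Dcn and Lum, the most counted of the list, had log2 fold changes of 0.18 and 0.19 (edgeR adjusted p = 0.0251 and 0.0443). Of 10 endothelial markers none was called and 8 were higher by the adjusted p alone, with Cdh5 at 0.16 and Pecam1 at 0.38. Over all genes tested, 21.9% were higher and 23.1% lower by the adjusted p alone, and 8.31% were called higher and 8.39% lower. Of 9 mural cell markers 1 was called higher, and by the adjusted p alone 7 were higher and 1 lower. The most counted were Acta2, the 1 that was lower, at -0.19 and Rgs5 at 0.31. All 6 adipocyte markers were called higher, from 7.03 to 25.6 CPM in sum in WT to 137 to 159 CPM in KO, with Adipoq and Cfd at 2.66 and 4.21. Of 11 myogenic markers 5 were called higher and none lower, with Acta1 and Myh8 at 1.47 and 1.59 on the log2 scale, and by the adjusted p alone 6 were higher and 2 lower. Those 2, named after their values were seen, were Myod1 and Myog at -0.22 each. The part of these cell types in the collagen values was not tested.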

How the data were processed

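Leg muscle RNA of 3 WT and 3 SYISL KO samples was sequenced as 150 bp read pairs. According to the methods text and the submitters' processing notes, the authors trimmed reads with Trim Galore 0.6.6, mapped them to mm10 with HISAT2 2.2.1 and counted them with featureCounts 2.0.1. The authors deposited raw counts, 1 whole number per gene and sample, without normalization. Annotation, strand setting and the unit counted (reads or pairs) are not given in the sources used here, so overlapping genes cannot be separated. GENCODE M21 (mm10) held 55227 of the gene IDs, matched without their version, and lacked 1035.

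Counts were analysed in R 4.3.3 with edgeR 4.0.16: filterByExpr, TMM factors and the quasi-likelihood F-test on genotype, with Benjamini-Hochberg adjustment over 22071 genes. Calls need a fold change over 1.5 together with an adjusted p under 0.05. Shares of counts and chain ratios were compared by exact permutation. Lengths are those of the union of annotated exons, or of coding sequence. Promoters were those of RefSeq (GRCm38.p6), given for 35 of the 44 genes. Samples of a genotype differed beyond counting noise (mean chi-square 4.85 to 32.9 a gene).

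Every collagen was accounted for by class. Values in every sample are given for called members, the member of each class with the highest level per length, and their partner chains. Of the pathway lists, called genes of at least 5 CPM, Serpinh1 and Lox are named, and of each marker list the 2 most counted genes. The values of 1 marker are left out. The members, classes and lists were chosen with earlier results of these data known. The alternatives were other scaling factors (RLE, upper-quartile, library size), other filters, DESeq2 1.42.0, limma-voom (limma 3.58.1), a replicate block, other fold thresholds and leaving out each sample.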

Additional observations from a re-analysis of the deposited data

How the results depend on the processing

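The 6 collagens called lower were lower and called under RLE, upper-quartile and library size scaling, both other filters, DESeq2, limma-voom and the replicate block, and the number called lower was 6 to 7 with each sample left out. The 7th was Col10a1 without WT replicate 1, at -0.61. The number called higher was 1 in the same settings except upper-quartile factors, with 3 (Col4a3 at 0.65 and Col20a1 at 0.63 passed the fold threshold), and 1 to 2 with each sample left out (without KO replicate 1, Col20a1 passed at 0.59). Without a fold threshold 20 were called higher and 11 lower, and 9936 genes in all, and with a fold change over 2 these were 1, 4 and 2043, against 3687 genes at 1.5-fold. Deviations from the group means of same-numbered WT and KO samples correlated at r = -0.20, -0.13 and 0.05. These values showed no pairing by replicate number, and a shared batch was not tested. With the replicate block, 1 collagen was called higher and 6 lower, of 3521 genes called, against 3687 without it. By the adjusted p alone, Col4a3 lost its pass with library size only (0.0575), no filter (0.0706), DESeq2 (0.193), the replicate block (0.065) and each sample left out (0.0502 to 0.115). Col4a4, Col1a2, Col18a1 and Col8a2 each lost it under at least 1 scaling and at least 1 sample left out, and Col13a1 and Col6a6 with library size only. Other members gained a pass. Col1a1 did so with upper-quartile factors (0.0453), DESeq2 (0.0191) and limma-voom (0.0367). Col27a1 passed with upper-quartile factors (0.0117) and Col11a1 with library size only (0.039), among others. Only log2 fold changes near 0 changed sign. Col11a2 was at 0.0618 with upper-quartile factors and from -0.0439 to 0.0262 with each sample left out, Col19a1 at 0.0427 and from -0.17 to 0.10. Col16a1 was at -0.0643 with library size only and from -0.0545 to 0.0376 with each sample left out, Col24a1 at -0.0538 and from -0.0023 to 0.035. Col7a1 ranged from -0.179 to 0.0164, above 0 without WT replicate 2. The cause of these changes was not tested. Scaling moved the median of all genes by -0.07 to 0.07 on the log2 scale. With 3 samples a group, the shares and chain ratios could not reach an exact p under 0.1.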
